A study of Mus musculus with 58 samples.

Results

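The genes described here encode the protein components of the cytosolic ribosome. They were selected by symbol, as every gene named Rpl or Rps with a number, together with Rplp0, Rplp1, Rplp2 and Rpsa, with pseudogenes and the Rps6k kinases left out. The selection held 80 of the 20177 genes in the count tables, 48 of the large subunit and 32 of the small subunit, and left 20097 other genes. Ribosomal protein (RP) genes are transcribed at high rates in dividing cells, and their mRNAs are among the most stable in the cell. Most begin with a run of pyrimidines, the 5′ terminal oligopyrimidine (TOP) motif, through which their translation follows growth signals. Most have also left many processed pseudogenes in the mouse genome, near-identical copies onto which short reads can map.

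The cells were E14 mouse embryonic stem (mES) cells of 129/Ola background in which a core subunit shared by the SET1/COMPASS histone H3 lysine 4 methyltransferases could be degraded. In the DPY30-mAID line, auxin removed DPY30 through the miniAID tag and OsTIR1. In the RBBP5-FKBP line, dTAG-13 removed RBBP5. The dKO line was DPY30-mAID with Kdm5a and Kdm5b, which encode demethylases of trimethylated H3K4, deleted in addition. Its 0 h cells thus lacked KDM5A and KDM5B and still held DPY30. The line was made by sequential single-cell cloning, and the labels do not name the clone that was sequenced. In SLAM-seq, cells were fed 100 µM 4-thiouridine for 60 min and the label was read as T>C conversions in 3′-end reads, so T>C reads mark newly made RNA over a background of conversions present without label, and all reads together gave the steady-state RNA. The SLAM-seq set held DPY30-mAID and RBBP5-FKBP cells at 0, 2, 8 and 24 h of ligand with 3 libraries per time, and dKO cells at 0, 2, 4, 8, 24 and 48 h of auxin with 2 libraries per time. Quant-seq, which counts the same 3′ ends without label, followed DPY30-mAID cells differentiated with 1 µM retinoic acid (RA) in DMSO or auxin. Times were 8 h and days 1, 2, 4 and 6, with a DMSO 0 h start. Per the study's methods, RA was given without leukaemia inhibitory factor (LIF), which the mES medium holds. Against 0 h, RA and LIF withdrawal therefore cannot be told apart. Each Quant-seq group held 2 libraries, except that both DMSO day 6 libraries held identical counts and were used as 1, so that day was not tested. In all, 58 libraries were read, 36 of SLAM-seq and 22 of Quant-seq, of which 21 were distinct.

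The libraries held 2013350 to 2806821 counted reads in DPY30-mAID, 1721185 to 2852331 in RBBP5-FKBP, 5931269 to 7792404 in dKO and 1264241 to 2543632 in Quant-seq. A list of 8 mES markers was measured in every library, with none at 0 and a summed level of 5980 to 9438 CPM (reads per 1000000 counted reads of the library) over the SLAM-seq libraries, whereas a list of 5 fibroblast markers summed to at most 6.91 CPM in DPY30-mAID and RBBP5-FKBP and 25.02 CPM in dKO. Since a degron removes protein, the RNA of its target does not check it. Kdm5b lay at 109 to 151 CPM in dKO at 0 h against 906 to 946 CPM in DPY30-mAID, but at 299 to 343 CPM in the DPY30-mAID Quant-seq libraries, and Kdm5a lay at 26.0 to 27.5, 74.5 to 106 and 40.9 to 46.1 CPM. These reads lie in the 3′ UTR and need not fall with an edit elsewhere in the gene. The 3 libraries of DPY30-mAID at 8 h stood apart in label: 13.9%, 10.6% and 5.86% of the reads of all other genes held T>C there, against 16.4% to 17.3% at 0 h, and the counts of RP genes called at 8 h are given with libraries left out. The study calls its SLAM-seq replicates biological. The labels do not say whether libraries of a group came from separate cultures, so the p-values measure the spread between these libraries. In bulk samples, fewer cells of a type and less RNA per cell cannot be told apart.

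Much of what was counted for RP genes could not be placed uniquely. Of the reads assigned to RP genes, 69.1% to 70.4% per library also mapped elsewhere in DPY30-mAID, 69.4% to 71.1% in RBBP5-FKBP, 77.2% to 79.3% in dKO and 82.8% to 84.1% in Quant-seq. For all other genes the range over all libraries was 16.9% to 26.1%. Counted over all distinct libraries, 61 of the 80 genes had more than 50% of their reads in this state, 41 had more than 90%, and 7 had under 10%. In DPY30-mAID at 0 h, Rps6, the S6 kinase substrate, was at 100%, whereas Rpl8, whose product contacts the peptidyl transferase centre, was at 0.0161%. Placement also differed between assays: Rps20 and Rps26 had 0.102% and 0.554% of reads mapped more than once in those libraries but 85.9% and 51.7% in Quant-seq. The levels of genes with a high share are therefore uncertain, and tests compare 1 gene across libraries of 1 assay. Where label shares are set side by side between genes, the order is a description. The 80 genes were counted over 124 annotated 3′ UTR intervals with a median summed length of 257.5 bases, against 1138 bases over all genes.

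Several RP genes collected few reads. Rpl3l, the striated-muscle paralogue of Rpl3, was at 0 in all DPY30-mAID 0 h libraries, and the mean was 5.67 reads for Rpl11, 8.33 for Rps27, 8 for Rpl10, 15.3 for Rpl39l, 27.7 for Rplp2, 37.3 for Rpl10l and 44 for Rplp1. At these counts no statement is made on Rpl3l, Rpl10, Rpl11 or Rps27 in DPY30-mAID. Whether low counts reflect low mRNA levels or the way reads were placed and counted was not tested. Rpl39l and Rpl10l had more reads in dKO and in Quant-seq, where calls on them are given. The filter asked for an average of 10 reads or more in 1 group. It passed 72 RP genes for T>C reads in DPY30-mAID and in RBBP5-FKBP, 74 in dKO, 77 to 79 for all reads and 76 in Quant-seq.

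Transcript starts of 8 genes are shown to compare the paralogue pairs described below and a pair of classical TOP genes. Each window of 28 bases runs from 8 bases before to 20 bases after the annotated start, from RefSeq on GRCm38.p6. Capitals mark a run of at least 6 pyrimidines (C or T only) whose first base lies from 3 bases before to 10 bases after the start. Where a gene had more than 1 annotated start, as for Rpl22 and Rps27l, the most upstream is given. The windows are Rpl22 at chr4:152324428-152324455 (plus strand), Rpl22l1 at chr3:28805500-28805527 (plus), Rps27 at chr3:90213629-90213656 (minus), Rps27l at chr9:66946078-66946105 (plus), Rpl39 at chrX:37085203-37085230 (minus), Rpl39l at chr16:10170220-10170247 (plus), Rpl13a at chr7:45128726-45128753 (minus) and Rps6 at chr4:86857348-86857375 (minus).
Rpl22: tctggaatgttccagctcccactgacag
Rpl22l1: gcaagcccgTTCTCTTCCCacggctgca
Rps27: ctttcgCTCCTTTCCggcggtgacgacc
Rps27l: tccccgccgcctctatcccggaagttgc
Rpl39: tccgcctctagcgaCTTCTTCTaatcgc
Rpl39l: gcctttccggatttccggtggtcgccat
Rpl13a: tgcgacaagaCCTCCTCCTTTCCCaggc
Rps6: agtcgggCCTCTTTTTCgtgacgcctcc
The run measured 14 bases in Rpl13a, 10 in Rpl22l1 and Rps6, 9 in Rps27 and 8 in Rpl39, and no run by this definition stood in the windows of Rpl22, Rps27l or Rpl39l. Over the 62 RP genes with an annotated start in the table, 20 held such a run (32.3%), against 4517 of 27025 genes (16.7%). It was present in 12 of 24 small-subunit and 8 of 38 large-subunit genes. These are letters at an annotated start, not measured initiation sites. Runs that begin further upstream and cross the start, as in Rpl14, Rpl15 and Rpl7a, are not counted by this definition.

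The first question was how much of the RP mRNA was newly made within the labelling hour. In DPY30-mAID cells at 0 h, 5.62%, 5.21% and 5.25% of RP reads carried T>C, against 17.3%, 16.4% and 17.3% of the reads of all other genes. The mean was 5.36% ± 0.229 (SD, n = 3) for RP genes and 17.0% ± 0.529 for the rest, and the ranges did not overlap. RBBP5-FKBP cells gave 3.23% ± 0.0632 and 10.3% ± 0.682 (n = 3), and dKO cells 2.07% ± 0.136 and 5.54% ± 0.499 (n = 2). In each line the RP share was below the share of the other genes in every library. RP reads held fewer T positions, at 11.3 to 11.5 per read in DPY30-mAID against 19.2 to 19.8 for other genes. Counted per T, the gap was smaller but kept its direction, at 4.40 conversions per 1000 T in RP genes against 10.8 in the rest in DPY30-mAID, 2.48 against 6.17 in RBBP5-FKBP and 2.48 against 5.34 in dKO. Without label, in Quant-seq, 0.191% to 0.267% of RP reads and 0.310% to 0.402% of other reads held T>C, with 0.232 to 0.337 and 0.2503 to 0.321 conversions per 1000 T. Each RP share rests on 4376 to 28465 T>C reads per SLAM-seq library. The levels are not compared between lines, because the T>C shares of the other genes differed at the same labelling. T positions per RP read were also fewer in dKO, at 7.35 to 7.82, against 11.2 to 11.7 in RBBP5-FKBP.

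**Figure D1:**
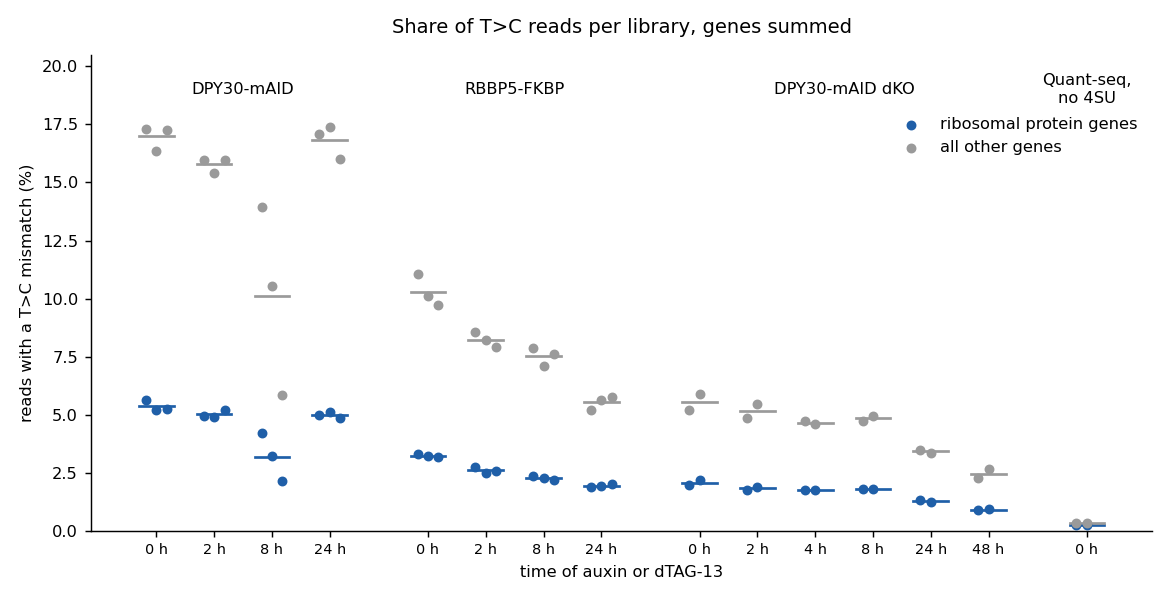
Share of reads with T>C (%) per library, for the RP genes summed and for all other genes summed, by line and hours of ligand, with the unlabelled Quant-seq start on the right; each point is a library and the horizontal bars are group means. RP genes lie below the other genes in every library, and the DPY30-mAID libraries at 8 h spread from 2.15% to 4.22% for RP genes.

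Nearly all single RP genes lay low in label. Of the 4080 genes that averaged 100 reads or more in DPY30-mAID at 0 h, 72 were RP genes. Their median share was 5.26% against 17.9% over the other genes, and 71 of the 72 lay below that value. The counts were 71 of 72 among 4172 genes in RBBP5-FKBP (2.98% against 10.2%) and 74 of 76 among 6870 genes in dKO (2.07% against 5.43%). Within DPY30-mAID the RP genes ranged from 1.79% to 21.1%. At the top stood Rpl7l1, a paralogue of Rpl7 with a role in ribosome assembly, at 21.1%, whereas Rpl7 itself was at 6.97%. Rps27l, a p53-responsive paralogue of Rps27, followed at 12.8%. At the bottom were Rpl36 at 1.79% and Rps18 at 2.08%. Among the genes with at least 100 reads of which under 10% mapped more than once in these libraries, shares from high to low included Rps27l at 12.8%, Rpl8 at 6.38%, Rpl4 at 5.32%, Rps3 at 5.06%, Rps26 at 4.95%, Rps15a at 4.45% and Rps20 at 3.09%. Some other genes described here had label shares from Rplp0 (the anchor of the P stalk) at 7.80% through Rps6 at 6.28%, Rpl22l1 at 6.21%, Rpl3 at 6.14%, Rpl5 (which carries the 5S rRNA) at 5.42%, Rps27a (made as a ubiquitin fusion) at 5.41%, Rps19 at 4.99%, Rpl39 at 4.98%, Rpl41 at 4.24% to Rpsa at 3.59%.

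In some RP genes, T>C reads were present without label. Over all distinct Quant-seq libraries, Rplp1 showed T>C in 30 of 131 reads (22.9%) and Rplp2 in 10 of 116 (8.62%), both being the acidic proteins of the P stalk. Over single libraries Rplp1 ranged from 0% to 100% and Rplp2 from 0% to 40%, and more than 3 T>C reads were present in 1 of 21 libraries for Rplp1 and in 0 for Rplp2. Rps28 showed T>C in 917 of 26507 reads (3.46%), from 2.21% to 4.26% over the libraries, and its labelled share in DPY30-mAID at 0 h was 7.67%. Rps21 stood at 1.43%. The other 73 RP genes with at least 1000 unlabelled reads lay between 0.0481% and 0.967%.

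After loss of DPY30 or RBBP5, the label share was lower at the later times in RBBP5-FKBP and dKO, for RP genes and for the rest. In DPY30-mAID the RP share was 5.02% ± 0.153 at 2 h and 4.98% ± 0.127 at 24 h, from 5.36% at 0 h. Over the 7 RP genes with under 10% multimapped reads the means were higher instead, at 5.80% at 0 h, 6.10% after 2 h and 6.13% after 24 h. Their libraries ranged from 5.70% to 5.93%, 5.99% to 6.18% and 5.89% to 6.57%, so that 24 h overlapped 0 h. These genes held 0.871% to 0.969% of all reads at 0 h. At 8 h the 3 DPY30-mAID libraries gave shares over all RP genes of 2.15%, 3.22% and 4.22%, all below 0 h. Their spread was wider than that of any other SLAM-seq group. In RBBP5-FKBP the RP share averaged 3.23%, 2.61%, 2.28% and 1.94% ± 0.0759 after 0, 2, 8 and 24 h. In dKO it averaged 2.07%, 1.82%, 1.76%, 1.80%, 1.27% ± 0.0519 and 0.899% ± 0.0376 after 0, 2, 4, 8, 24 and 48 h. The group mean of the ratio of the RP share to that of the other genes lay between 0.296 and 0.325 in DPY30-mAID, between 0.303 and 0.351 in RBBP5-FKBP and between 0.353 and 0.377 in dKO. In RBBP5-FKBP the highest ratio was at 24 h, and in DPY30-mAID the lowest was at 24 h.

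For each gene, T>C reads were tested against 0 h with edgeR's quasi-likelihood test and Benjamini-Hochberg adjustment over all genes tested, with each library scaled by its total reads times a TMM factor computed from total reads, so that a general fall in new RNA shows as a fall. Where 0 RP genes are given for a direction in a comparison within a line, DESeq2 also called 0 unless its count is given, and the count at an unadjusted p of 0.05 was 0 unless given. In DPY30-mAID at 2 h, 0 of 72 RP genes passed an adjusted p of 0.05 in either direction, as did 0% of all genes tested, with 2 lower at an unadjusted p of 0.05. At 8 h, 35 of the 72 were lower and 0 higher, where 16.1% of all genes tested were lower and 0.158% higher. Of those 35, 27 were lower by more than 1 on the log2 scale. The median log2 change of RP genes was -0.88 and that of all genes -0.72. Among RP genes with at most 50% multimapped reads, 4 of 13 were lower (median -0.64). Among those above 50%, 31 of 59 were lower (median -0.89). T>C reads were not retested without multimapped reads. Scaled by total reads with no TMM factor, 23 were lower. The count leaned on the libraries: it was 0 with replicate 2 left out of every group, and 56, 18 or 31 with 8 h replicate 1, 2 or 3 alone left out, settings chosen after seeing the data. With TMM factors taken from the T>C reads themselves, which sets the median gene to no change, the all-gene median moved up by 0.70 and 5 RP genes were lower and 1 higher.

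Several structural proteins led the fall at 8 h. Rps16, whose tail reaches the P site, had 117, 110 and 111 T>C CPM (T>C reads scaled to CPM by all reads of the library) at 0 h and 50.3, 44.0 and 46.5 at 8 h (log2 change -1.37, SE 0.291, adjusted p = 0.00118). All its 8 h libraries lay under the 0 h range. Rpl9 changed by -1.71 (SE 0.389, adjusted p = 0.00211). Of the genes named for their role or as a paralogue, Rps6 fell by 1.22 on the log2 scale, from 60.5, 46.0 and 50.0 to 28.5, 28.1 and 15.5 T>C CPM. Rpsa, which binds at the mRNA exit, also fell (adjusted p = 0.0104), from 62.0, 54.5 and 48.2 to 34.1, 26.6 and 16.4. Groups did not overlap for either gene. Rplp0 fell by 0.82 (302, 265 and 289 to 211, 166 and 146), Rpl5 by 0.89, Rps19 by 1.02 and Rpl3 by 1.16, and each passed the test. Rps27a, at -0.84, did not pass. None of these genes was called with replicate 2 left out of every group, where 0 RP genes were. Over the fits with libraries left out, the log2 change ran from -1.42 to -1.33 for Rps16 and from -2.26 to -1.36 for Rpl9.

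At 24 h in DPY30-mAID the RP genes stood on the other side of the all-gene median. Their median log2 change was 0.32 and that of all genes -0.14, and 14 of the 72 had a negative change, against 56.4% of all genes tested. Yet 0 of 72 passed the test in either direction, where 2.72% of all genes tested were lower and 0.823% higher. At an unadjusted p of 0.05, 8 were higher and 0 lower, DESeq2 called 2 higher, and with TMM factors from T>C reads 24 were higher, with the all-gene median 0.12 up. Without replicate 3, 5 were higher and 1 lower. Rps27l showed 48.3, 63.4 and 26.8 T>C CPM at 0 h and 98.7, 122 and 105 at 24 h, a log2 change of 1.22 that did not pass. Rps3a1 showed 125, 102 and 128 at 0 h and 191, 170 and 178 at 24 h. In both genes every 24 h library lay above the 0 h range.

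In RBBP5-FKBP the RP genes called were 1, 6 and 21 over the 3 times. At 2 h, 1 of 72 was lower and 0 higher, against 0.252% and 0% of all genes tested, with medians of -0.32 for RP genes and -0.33 for all and 1 RP gene higher at an unadjusted p of 0.05. The gene lower at 2 h was Rpsa, with 34.6, 37.2 and 53.7 T>C CPM at 0 h and 16.3, 16.1 and 8.54 at 2 h (log2 change -1.64, SE 0.358, adjusted p = 0.0155). Its groups did not overlap, but it was not called with any one replicate left out. At 8 h, 6 were lower and 0 higher, against 7.52% and 0.126%, with medians of -0.45 and -0.49, and the count was 0 without replicate 1 or 3. Rpl41, the shortest RP, changed by -0.77 (SE 0.211, adjusted p = 0.0153), Rpl13a by -0.90 (SE 0.260, adjusted p = 0.0221) and Rps29 by -0.82 (SE 0.239, adjusted p = 0.0233). At 24 h, 21 were lower, 11 of them by more than 1, and 0 higher, against 25.9% and 0.189% of all genes, with medians of -0.68 and -0.91. The RP count at 24 h, 29.2% of those tested, was near the share among all genes, and it was 7 without replicate 1, while 1 was higher without replicate 2. With TMM from T>C reads the all-gene median rose by 0.30, 0.48 and 0.90 at the 3 times, 0 RP genes were lower at each and 3 were higher at 24 h.

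At 24 h in RBBP5-FKBP, Rpl41 had 154, 160 and 153 T>C CPM at 0 h and 58.9, 75.003 and 68.9 at 24 h (log2 change -1.23, SE 0.213, adjusted p = 1.03e-05). Rps4x had 94.7, 58.5 and 63.5 at 0 h and 17.3, 22.4 and 35.2 at 24 h (-1.56, SE 0.289, adjusted p = 3.02e-05). In both genes the highest 24 h library lay below the lowest 0 h library. Rpsa, the gene called at 2 h, stayed low at 8 h with 24.2, 19.9 and 19.3 T>C CPM and at 24 h with 11.5, 12.6 and 21.2.

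In dKO cells nearly all calls came at 24 and 48 h. At 2 and 4 h, 0 of 74 RP genes passed in either direction by edgeR, with 0% of all genes tested lower at 2 h and 0.453% at 4 h and 0% higher at both. The medians were -0.16 and -0.25, those of all genes -0.12 and -0.25, and at an unadjusted p of 0.05, 11 and 19 RP genes were lower and 0 higher. At 8 h, 1 was lower and 0 higher, against 1.12% and 0.0168%: Rps7, a 40S protein that also binds MDM2, with 68.98 and 97.7 T>C CPM at 0 h and 60.6 and 53.8 at 8 h (log2 change -0.57, SE 0.159, adjusted p = 0.0454). It was not called when 1 of the 0 h or 8 h libraries other than 0 h replicate 1 was left out, and the count was 5 without that library. Scaled by total reads alone, 3 RP genes were lower. At 24 h, 64 of 74 were lower, 10 of them by more than 1, and 0 higher, against 42.2% and 0.151% of all genes, with medians of -0.71 and -0.80, and 38 were lower without 0 h replicate 2. At 48 h, 72 were lower, 62 by more than 1, and 0 higher, against 72.3% and 0.117%, with medians of -1.33 and -1.29. All 74 had a negative change at 48 h, as did 97.5% of all genes tested, and the count was 70 to 73 with any one library left out. The high counts stand beside high shares among all genes. With TMM from T>C reads the all-gene median rose by 0.79 at 24 h and 1.29 at 48 h, and 3 RP genes were then lower and 5 higher at 24 h, 6 lower and 5 higher at 48 h.

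Rpl3, which contacts the peptidyl transferase centre, led in dKO. It had 59.4 and 68.1 T>C CPM at 0 h, 27.8 and 18.8 at 24 h and 17.8 and 19.2 at 48 h, with log2 changes of -1.51 (adjusted p = 1.67e-11) and -1.88 (SE 0.176, adjusted p = 1.31e-15). Rps23, at the decoding centre, had 68.4 and 88.8 at 0 h and 21.8 and 25.6 at 48 h (-1.82, adjusted p = 1.82e-15). Rps9 and Rps20 changed at 24 h by -1.37 (SE 0.174) and -1.21 (SE 0.165). Rplp0 changed by -0.45 at 24 h and -0.76 at 48 h, with 71.9 and 93.7 T>C CPM at 0 h and 55.3 and 49.3 at 48 h. Rpl22l1, which can stand in for Rpl22, fell by 1.93 at 48 h from 27.4 and 23.0 to 5.64 and 8.32, and Rpl22 fell by 1.35. Both members of the pair passed the test.

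**Figure D2:**
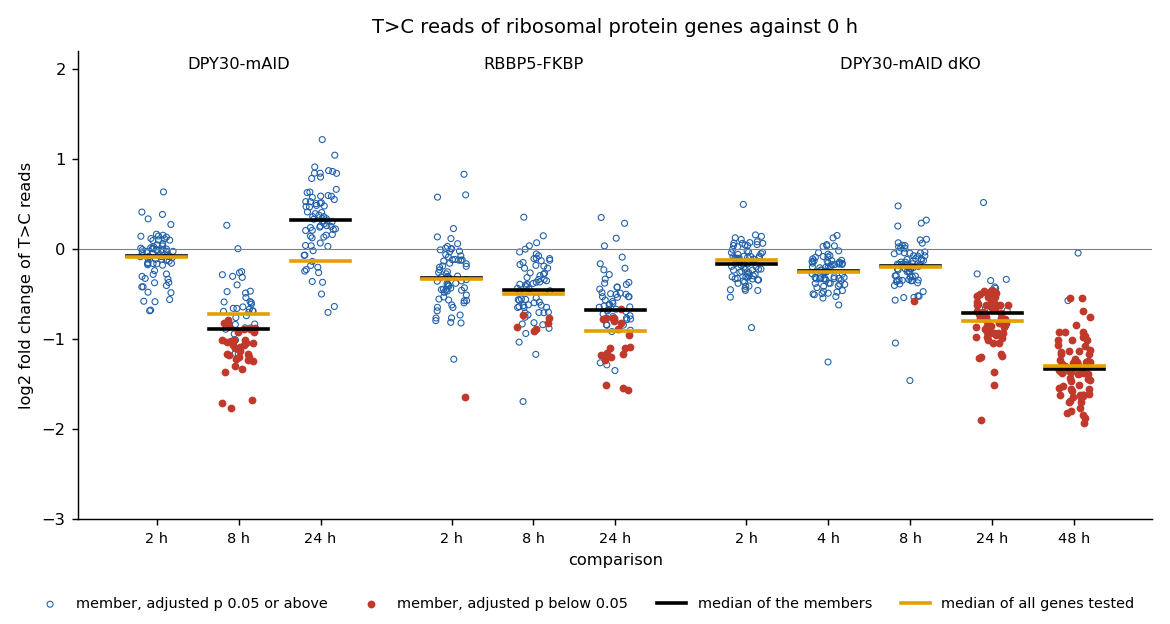
Log2 change of T>C reads against 0 h for each RP gene tested, in the 11 comparisons of the 3 lines; red filled points have an adjusted p below 0.05, open blue points do not, the black bar is the median of RP genes and the orange bar that of all genes tested. The black and orange bars fall together at most times, and at 24 h in DPY30-mAID they part, at 0.32 and -0.14.

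Because an effect called in one line and not in another is not thereby shown to differ, the lines were compared by an interaction term in 1 fit with 74 RP genes tested. At 8 h the change in RBBP5-FKBP was lower than in DPY30-mAID for 0 of 74 RP genes and higher for 0, against 0.0287% and 0.244% of all genes, with 11 higher at an unadjusted p of 0.05. For dKO minus DPY30-mAID at 8 h it was also 0 and 0, against 0% and 0.244%, with 17 higher unadjusted. DESeq2 was not run on these contrasts. The medians of RP genes were 0.41 and 0.68, those of all genes 0.35 and 0.53. At 24 h the change in RBBP5-FKBP was lower than in DPY30-mAID for 27 RP genes and higher for 0, against 11.4% and 0.66% of all genes, with medians of -1.02 and -0.63. For dKO it was lower for 8 and higher for 0, against 1.35% and 0%, with medians of -1.06 and -0.70. With a replicate number left out of every group, the counts were 4 and 0 without replicate 1, 0 and 0 without replicate 2, and 38 and 28 without replicate 3. At 8 h, 1 was higher in dKO without replicate 3. With TMM from T>C reads they were 8 and 0, with the all-gene medians up by 0.63 and 0.64. The dKO groups hold 2 libraries, so that without replicate 1 or 2 each is 1 library, assumed to vary like those of the other groups, and without replicate 3 no dKO library is removed. Of the 27 and the 8, 6 genes were in both, which share the DPY30-mAID libraries.

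The genes that led these differences had lower levels at 24 h than at 0 h in RBBP5-FKBP or dKO and higher mean levels in DPY30-mAID. Rps3a1 went from 125, 102 and 128 T>C CPM to 191, 170 and 178 in DPY30-mAID and from 91.4, 63.8 and 57.0 to 28.4, 29.3 and 36.6 in RBBP5-FKBP (difference of log2 changes -1.80, SE 0.344, adjusted p = 8.43e-05). Rpl41 went from 292, 228 and 191 to 287, 301 and 366 in DPY30-mAID, where its groups overlapped, and its difference was -1.66 (SE 0.328, adjusted p = 0.000138). Rpsa differed by -2.00 (SE 0.406, adjusted p = 0.000202). For dKO the leading genes were Rpl12, a stalk-base protein, at -2.02 (SE 0.471, adjusted p = 0.0146), Rps12 at -1.79 (SE 0.424, adjusted p = 0.0166) and Rps27l at -2.00 (SE 0.492, adjusted p = 0.0247). Rpl12 went from 23.9, 26.4 and 39.5 to 59.4, 51.4 and 52.1 T>C CPM in DPY30-mAID, a change that was not called within that line, and from 57.2 and 59.0 to 28.6 and 25.1 in dKO. Rps12 went from 53.2, 54.2 and 48.5 to 96.3, 102 and 98.1 and from 88.2 and 90.3 to 51.5 and 50.9. Neither gene overlapped between 0 h and 24 h in either line.

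All reads of the same libraries gave steady-state RP mRNA. In DPY30-mAID at 2 h, 0 of 77 RP genes passed in all reads, against 0.0305% of all genes lower and 0% higher, with 4 lower and 0 higher at an unadjusted p of 0.05. At 8 h, 12 were lower and 0 higher, against 7.85% and 5.32%, with medians of -0.10 for RP genes and 0.01 for all. Without replicate 3, 1 was lower at 2 h. The 12 at 8 h became 3, 1 and 7 without replicate 1, 2 and 3, 2 when libraries were scaled by total reads alone and 3 without multimapped reads. Rps18 went from 720, 658 and 657 CPM to 584, 527 and 514 (log2 change -0.43, SE 0.101, adjusted p = 0.00206), and Rpl23 from 2375, 2390 and 2192 to 1911, 2050 and 1990 (-0.33, SE 0.0782, adjusted p = 0.00227), but Rpl23 was at -0.07 and not called without multimapped reads. At 24 h, 54 RP genes were higher and 3 lower, where 15.9% of all genes tested were higher and 17% lower. The median was 0.38 for RP genes and 0.01 for all, and 6 of 77 had a negative change, against 49.2% of all genes tested. With replicate 2 left out, 35 were higher, the 3 lower became 1 without replicate 1 or 2, and with multimapped reads left out, 30 were. RP genes took 9.46% to 10.2% of all counted reads at 0 h and 12.2% to 13.3% at 24 h. By subunit, 21 of 32 small-subunit and 33 of 45 large-subunit genes were higher, with medians of 0.38 and 0.36.

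Rpl22, which represses its own paralogue and is not essential for translation, went from 992, 996 and 798 CPM at 0 h to 1613, 1883 and 1884 at 24 h (log2 change 0.94, SE 0.0944, adjusted p = 1.57e-11). Its partner Rpl22l1 rose with it, from 419, 367 and 436 to 649, 617 and 673 (0.66). Neither gene's 24 h libraries came near the 0 h range. Rps27l went from 342, 357 and 373 to 661, 815 and 836, the largest log2 rise among the RP genes tested (SE 0.116, adjusted p = 6.46e-11). Rpl13a, whose start is shown above, went from 1916, 1877 and 1867 to 2986, 3736 and 3363 (0.82, SE 0.0829, adjusted p = 1.61e-11). Rpl10a went from 2768, 2696 and 2579 to 4157, 4711 and 4784 (0.75, SE 0.0766, adjusted p = 2.18e-11). Among the genes named for their role, Rpsa rose by 0.51, Rpl5 by 0.49, Rplp0 by 0.48, Rps19 by 0.37 and Rps27a by 0.32, and Rps6, at 0.21, did not pass. Of the paralogue pairs, Rpl3 rose by 0.42, Rpl39 by 0.36 and Rpl7 by 0.32. Rpl28 and Rps26 were among the 3 that fell. Rpl28 went from 1080, 950 and 823 CPM to 761, 718 and 740 (-0.37, SE 0.0999, adjusted p = 0.0028), but 99.4% of its reads mapped more than once, and it was at 0.12 without such reads. Rps26, at the mRNA exit, went from 2273, 1954 and 1953 to 1777, 1670 and 1610 (-0.30, SE 0.0812, adjusted p = 0.00305), with 0.554% of its reads mapped more than once.

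In RBBP5-FKBP few RP genes were called in all reads. At 2 h, 0 of 77 passed against 0% of all genes, with 6 higher at an unadjusted p of 0.05. At 8 h, 1 was lower and 3 higher against 4.96% and 4.2%, and at 24 h, 1 lower and 4 higher against 4.34% and 3%. The 4 higher at 24 h are 5.19% of the RP genes tested. The 3 higher at 8 h became 0 without replicate 1 or 3, 1 without replicate 2 and 1 without multimapped reads, and without replicate 3 the 24 h counts became 1 higher and 0 lower. The gene lower at both times was Rpl22l1. It had 596, 706 and 706 CPM at 0 h, 373, 309 and 358 at 8 h (log2 change -0.99, SE 0.117, adjusted p = 6.31e-06) and 493, 442 and 493 at 24 h (-0.52, SE 0.116, adjusted p = 0.00557). Both later groups lay under the 0 h range. Rps27l went from 363, 401 and 356 to 541, 522 and 590 at 8 h (0.52, SE 0.115, adjusted p = 0.00586) and 480, 505 and 527 at 24 h (0.40, SE 0.115, adjusted p = 0.0325). Rps24 went from 566, 959 and 825 to 1410, 1293 and 1706 at 24 h (0.88, SE 0.153, adjusted p = 0.000633), with every 24 h library above the 0 h range.

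In all reads of dKO at 24 h, 4 of 79 RP genes were lower and 1 higher, against 6.02% and 5.15% of all genes, and with libraries scaled by total reads alone 2 were lower and 5 higher. Without the filter on low counts, 12 were lower and 2 higher, and with a replicate block 9 and 2. At 48 h, 15 were lower and 0 higher, against 7.93% and 6.59%, with a median of -0.13, 63 of 79 negative (49.0% of all genes) and 4 higher at an unadjusted p of 0.05. Scaled by total reads alone, 6 were lower and 7 higher at 48 h, and without the filter 32 and 4. The 15 became 32 without 0 h replicate 1 and 7 without 0 h replicate 2. The 4 at 24 h became 8 and 2 without those libraries and 1 without either 24 h library, and the 1 higher became 7 without 0 h replicate 2 and 0 without 0 h replicate 1, 24 h replicate 2 or multimapped reads. Rpl22l1 went from 963 and 903 CPM to 725 and 749 at 48 h (-0.43, SE 0.0546, adjusted p = 8.98e-05). Rps4x went from 2812 and 2728 to 2478 and 2503 at 24 h and 2363 and 2398 at 48 h (-0.31 at 48 h, SE 0.0469, adjusted p = 0.000423). Rpl39l, a testis-enriched paralogue of Rpl39, went from 82.4 and 84.7 to 48.2 and 57.2 at 24 h (-0.72, SE 0.101, adjusted p = 0.000262). For these genes the groups did not overlap.

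**Figure D3:**
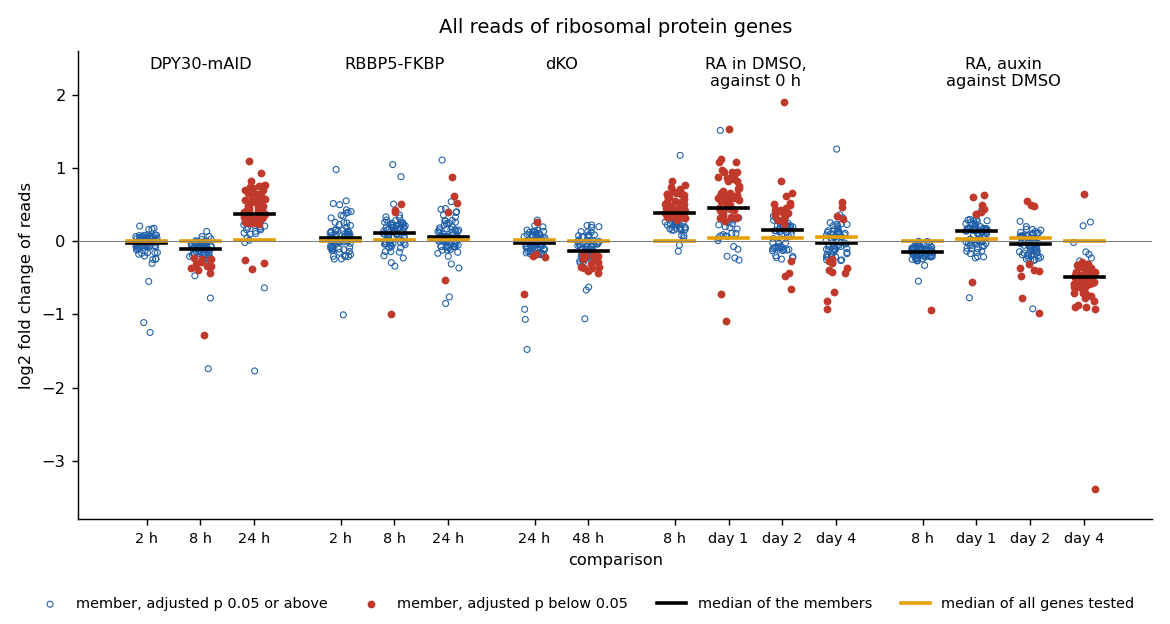
Log2 change of all reads for each RP gene tested, against 0 h in the 3 SLAM-seq lines and over RA in DMSO, and for auxin against DMSO at the same RA time; red filled points have an adjusted p below 0.05, open blue points do not, the black bar is the RP median and the orange bar the median of all genes tested. Most points lie above 0 at 24 h in DPY30-mAID and on day 1 of RA in DMSO, and below 0 for auxin against DMSO on day 4.

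During RA differentiation of DPY30-mAID cells in DMSO, more RP genes were higher at 8 h and day 1 than later. At 8 h, 45 of 76 RP genes were higher and 0 lower, against 9.21% and 9.08% of all genes, with medians of 0.39 and 0. At day 1, 50 were higher and 2 lower, against 26.2% and 25.5%, with medians of 0.46 and 0.04. At day 2, 18 were higher and 4 lower, against 25.1% and 22.9%, and at day 4, 4 were higher and 11 lower, against 28.7% and 25.6%. The RP shares at days 2 and 4 were at or below those of all genes. Scaled by total reads alone, 36 were higher and 3 lower at day 2, and 19 higher and 6 lower at day 4, with the all-gene median 0.15 up at day 4. RP genes took 9.04% to 9.52% of all reads at 0 h, 11.3% to 12.2% at 8 h, 13.03% to 13.9% at day 1, 10.0% to 10.2% at day 4 and 5.90% in the lone day 6 library. The 45 at 8 h became 21 without 0 h replicate 2 and 18 without 8 h replicate 2, and 23 without multimapped reads, and the 18 at day 2 became 10 without day 2 replicate 2. The 4 lower at day 2 became 2 without 0 h replicate 1, and at day 4 the 11 lower became 7 without day 4 replicate 2 and the 4 higher became 1 without 0 h replicate 2. Summed mES markers lay at 6940 to 7144 CPM at 0 h, 7412 to 7540 at day 1, 3382 to 3397 at day 4 and 1742 at day 6. Their part in the RP changes was not tested.

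**Figure D4:**
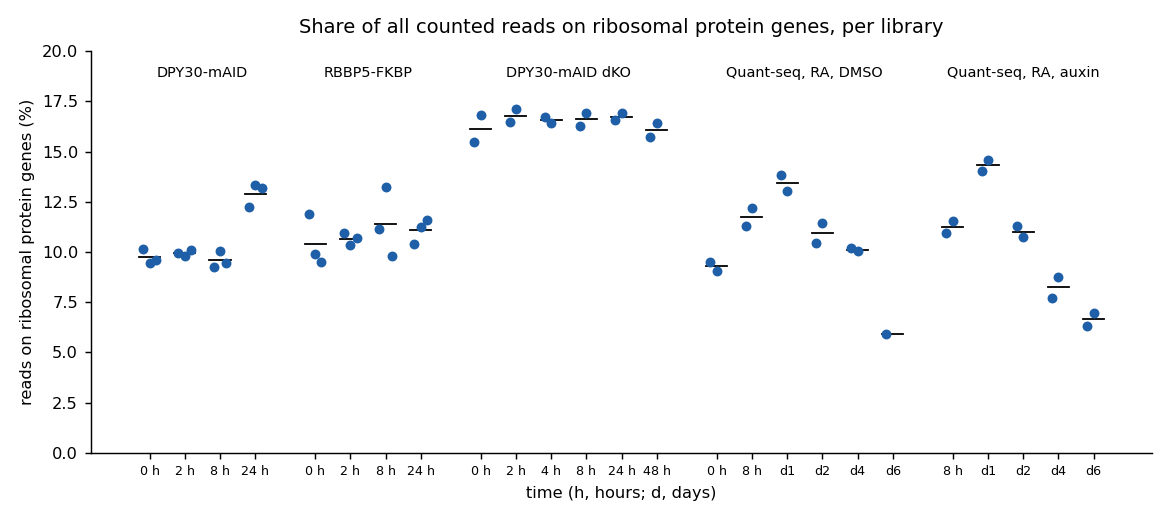
Percent of all counted reads that fell on RP genes, per library, for the SLAM-seq lines by hours of ligand and the RA time course in DMSO and auxin; each point is a library. The RA libraries range from 5.90% on day 6 in DMSO to 14.6% on day 1 in auxin, and the DPY30-mAID libraries at 24 h lie above those at 0 h.

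Rps9, a 40S body protein, traced the early rise, with 1968 and 2012 CPM at 0 h, 2988 and 3139 at 8 h, 3643 and 3846 at day 1, 2480 and 2548 at day 4 and 1266 at day 6. Its log2 change was 0.69 at 8 h (SE 0.0895, adjusted p = 2.76e-06) and 0.86 at day 1 (SE 0.0897, adjusted p = 1.01e-08). Rps19, the gene most often mutated in Diamond-Blackfan anaemia, stayed higher throughout, at 0.66, 0.82, 0.63 and 0.54 at 8 h and days 1, 2 and 4. Rpl13a went from 2976 and 3108 CPM to 4731 and 4946 at 8 h (0.74, SE 0.109, adjusted p = 1.82e-05). Rplp0 went from 2662 and 2432 to 3240 and 3403 at 8 h and 4422 and 3901 at day 1, and Rpl5 from 935 and 837 to 1964 and 1557 at day 1 (0.94). The largest rise at day 1 was that of Rpl10l, the intronless paralogue of Rpl10, from 167 and 160 CPM to 467 and 513 (SE 0.106, adjusted p = 5.70e-12). In SLAM-seq of DPY30-mAID at 0 h its mean was 14.55 CPM, and 19.99% of its Quant-seq reads mapped more than once. The cause of this gap between assays was not tested.

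Rpl4, which lines the exit tunnel, went the other way, from 1883 and 1737 CPM to 1117 and 1155 at day 1 (-0.72, SE 0.101, adjusted p = 1.46e-06), with 3.43% of its reads mapped more than once in Quant-seq. The paralogues Rpl22l1, Rpl7l1 and Rpl39l fell at day 4 by 0.92, 0.69 and 0.82 on the log2 scale (adjusted p = 7.65e-09, 2.04e-06 and 4.89e-05).

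Auxin was compared with DMSO at the same RA time. At 8 h, 1 of 76 was lower and 0 higher, against 0.71% and 0.0526% of all genes, although 75 of the 76 changes were negative (49.9% over all genes), with a median of -0.15. That gene was Rpl10l, at 100 and 103 CPM in auxin and 171 and 196 in DMSO (SE 0.116, adjusted p = 6.95e-05). At day 1, 7 were higher and 1 lower, against 4.27% and 2.97%, and at day 2, 3 were higher and 7 lower, against 5.96% and 7.39%. Leaving out any one library of day 1 gave 2 to 4 higher and 0 lower. At day 2 the 7 lower became 3 without DMSO replicate 2 and 4 without auxin replicate 2, and 3 without multimapped reads. At day 4, 65 of 76 were lower and 1 higher, against 10.4% and 7.78%, with a median of -0.48 for RP genes, that of all genes at 0.00 on the log2 scale, and 73 negative (49.7% over all genes). The day 4 count was 37 lower and 3 higher when scaled by total reads alone, which moved the all-gene median up by 0.18, and 28 lower and 2 higher without multimapped reads. It was 27 without auxin day 4 replicate 1 and 38 without DMSO day 4 replicate 1, and 0 were higher without either of these. The share of reads on RP genes was 10.0% to 10.2% in DMSO and 7.70% to 8.77% in auxin on day 4, with no overlap. Between auxin day 6 and auxin day 4, 31 were lower and 0 higher, against 4.8% and 5.83%, with 1 higher at an unadjusted p of 0.05, and the 31 became 8 without auxin day 4 replicate 2, 47 without auxin day 6 replicate 2 and 13 without multimapped reads.

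Markers of cell identity also differed between auxin and DMSO on day 4. The summed mES list (8 of 8 measured) lay at 2163 to 2214 CPM in auxin and 3382 to 3397 in DMSO. The primitive endoderm list of 5 genes lay at 528 to 530 CPM in auxin and 1383 to 1389 in DMSO, and the RA response list of 5 genes at 1067 to 1126 and 684 to 699. No marker of these lists was at 0 in either group. The trophectoderm list of 3 genes overlapped, at 359 to 457 and 393 to 399 CPM, and fibroblast markers reached at most 72.2 CPM over the RA libraries. The part of these shifts in the RP result was not tested.

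On day 4, Rps9 lay at 1637 and 1740 CPM in auxin and 2480 and 2548 in DMSO (log2 change -0.75, SE 0.0902, adjusted p = 7.93e-07). Rps28 lay at 463 and 555 in auxin and 884 and 767 in DMSO (-0.87, SE 0.104, adjusted p = 7.19e-07). Rplp0 lay at 1620 and 2070 in auxin and 2534 and 2503 in DMSO (-0.63). In none of the 3 genes did the groups overlap. Rpl5 fell by 0.58, Rpsa by 0.58, Rpl3 by 0.66, Rps4x by 0.72, Rpl39 by 0.56, Rps27a by 0.46, Rpl7 by 0.38 and Rps19 by 0.33, and all passed the test.

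**Figure D5:**
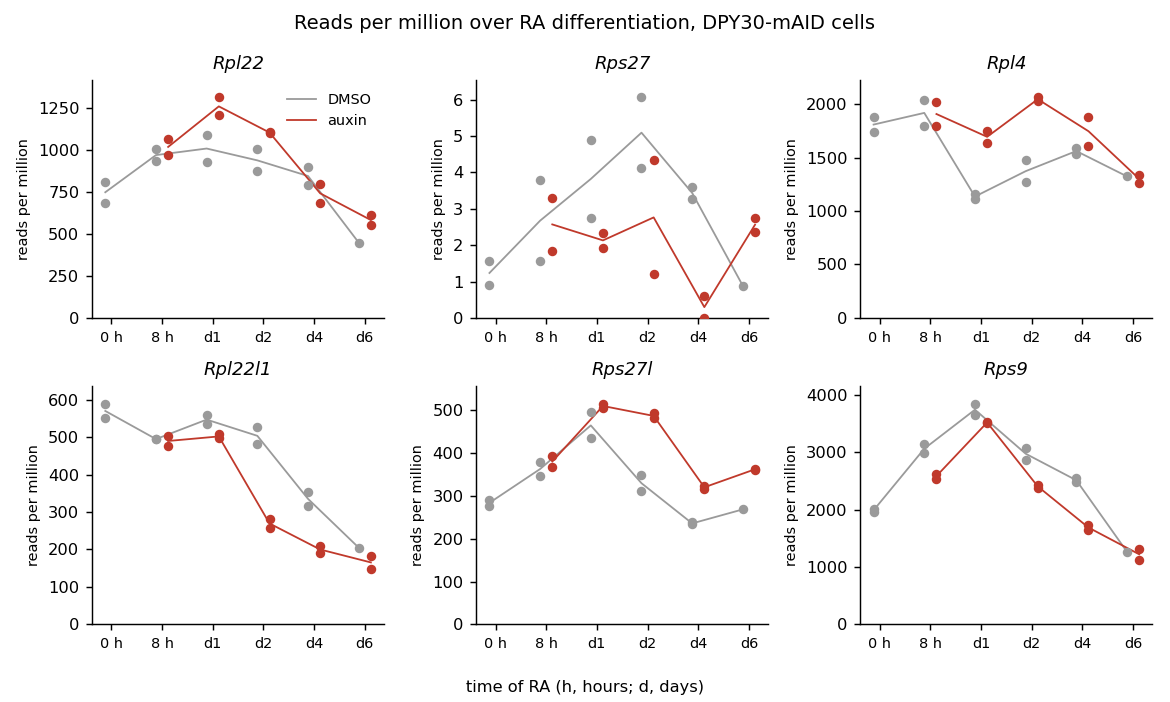
Levels of 6 RP genes in CPM over RA differentiation (0 h, 8 h and days 1 to 6), with DMSO libraries in grey, auxin libraries in red and lines through the group means. On day 1, Rpl4 lies at 1117 and 1155 CPM in DMSO and 1637 and 1753 CPM in auxin.

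The paralogue pairs were followed over RA as well. Rpl22l1 lay at 526 and 481 CPM in DMSO and 258 and 281 in auxin on day 2 (log2 change -0.98, SE 0.0989, adjusted p = 1.03e-07) and at 354 and 316 against 191 and 209 on day 4 (-0.92, SE 0.103, adjusted p = 2.53e-07), with no overlap on either day. Rpl22 was at 0.37 on day 1 and -0.36 on day 4, both past the test, with 790 and 902 CPM in DMSO and 687 and 798 in auxin on day 4, where the ranges overlapped. Rpl7l1 lay at 391 and 366 in DMSO and 231 and 238 in auxin on day 2 (-0.77, SE 0.0999, adjusted p = 5.13e-06). Rps27l lay at 312 and 348 in DMSO and 481 and 493 in auxin on day 2 (0.48, SE 0.0977, adjusted p = 0.00128). Rps27 itself had 8 and 7 reads in DMSO and 0 and 1 in auxin on day 4, too few to read a size from. Rpl39l was the only RP gene called higher in auxin on day 4, at 106 and 93.1 against 54.5 and 58.3 CPM (0.64, SE 0.154, adjusted p = 0.0039), while Rpl39 was lower. Rpl4, which fell on day 1 in DMSO, was higher in auxin than in DMSO on day 1, by 0.63 (SE 0.102), and on day 2, by 0.49. Whether the differences between the partners of a pair exceed their error was not tested.

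A list of 20 other genes was counted: ribosomal protein genes outside the naming rule such as Fau, elongation and initiation factors such as Eef2 and Eif4b, and other genes with TOP mRNAs or ribosomal ties, among them the nucleolar chaperone Npm1, Hnrnpa1 and Nap1l1. In T>C reads in DPY30-mAID, 2 of 20 were lower at 24 h (2.72% of all genes). At 8 h, 13 were lower (median -1.08; 16.1%), a count that rests on the 3 uneven 8 h libraries. In RBBP5-FKBP, 9 were lower at 8 h (-0.82; 7.52%) and 14 at 24 h (-1.07; 25.9%). In dKO, 16 and 18 of 19 were lower at 24 and 48 h, against 42.2% and 72.3%, and 0 were higher in any of these. In all reads in DPY30-mAID at 24 h, 9 of the 20 were higher and 3 lower (median 0.22), against 15.9% and 17%. Over RA in DMSO, 7 of 19 were higher and 1 lower at 8 h, against 9.21% and 9.08% of all genes. At day 1, 6 were higher and 8 lower (median -0.15, against 0.46 for RP genes), at day 2, 4 higher and 8 lower, and at day 4, 3 higher and 11 lower, where all genes gave 26.2% and 25.5%, 25.1% and 22.9%, and 28.7% and 25.6%. For auxin against DMSO on day 4 of RA, 14 of 19 were lower and 0 higher (median -0.41), against 10.4% and 7.78%. None of these list counts is given here with libraries left out or rescaled, settings that moved several RP counts of the same comparisons. With TMM from T>C reads, 5 RP genes were lower in DPY30-mAID at 8 h and 0 in RBBP5-FKBP at 8 and 24 h. In dKO, 3 and 6 were lower at 24 and 48 h.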

How the data were processed

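The study measured mES cells by SLAM-seq and Quant-seq 3′ FWD. Per the file headers, the authors made each deposited count table with SlamDunk (v0.3.4), which gave the counts of reads, T>C reads and multimapped reads per 3′ UTR interval. The labels name the genome build mm10 (GRCm38). Per the study's methods, adapters were trimmed with cutadapt through Trim Galore, SlamDunk ran with its multimapper option on and variants filtered, and Quant-seq reads were mapped with HISAT 2.2.1 and counted with featureCounts, whereas the deposited Quant-seq tables carry SlamDunk headers. The study's methods require at least 2 conversions per labelled read, a step that could not be repeated on the tables, so a read with 1 T>C counts here and part of that count is background. Multimapped reads are in the counts.

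Counts were summed over the 46420 intervals to 20177 genes, all matched to a symbol. The 80 members and all lists were chosen with earlier results of these data known. Genes that averaged 10 reads or more in 1 group were tested with edgeR 4.0.16 (R 4.3.3, glmQLFit and glmQLFTest), 1 fit per SLAM-seq line and 1 of all RA groups, with library size as total reads times TMM factors from total reads, also for T>C reads, and Benjamini-Hochberg adjustment over all genes tested. Calls needed an adjusted p below 0.05. Differences between lines used an interaction contrast. Named genes were the paralogue pairs, stalk, 5S-binding and disease-linked RP genes, in each comparison up to 3 called in each direction with the smallest adjusted p and no overlap, and those highest or lowest in label share or highest in reads. Alternatives were DESeq2 1.42.0, other scaling, no filter, a replicate block, no multimapped reads and libraries left out. Depth was 1264241 to 7792404 reads per library, and counts give precision to counting error only. The test was tried on simulated counts with 200 changed genes. Python 3.11.15 with numpy 2.4.6, pandas 2.3.3 and matplotlib 3.10.9 made the summaries. Some results are not reported here.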

Additional observations from a re-analysis of the deposited data

Results flagged for a closer look

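The change of T>C reads at 24 h differed between lines by an interaction term for 27 RP genes in RBBP5-FKBP against DPY30-mAID and for 8 in dKO against DPY30-mAID, all lower, where 11.4% and 1.35% of all genes were lower, by edgeR's quasi-likelihood test with Benjamini-Hochberg adjustment. With TMM from T>C reads the counts were 8 and 0. The leading differences of log2 changes were -1.80 for Rps3a1, -1.66 for Rpl41 and -2.00 for Rpsa in RBBP5-FKBP, and -2.02 for Rpl12, -1.79 for Rps12 and -2.00 for Rps27l in dKO. Without replicate 1, 2 or 3 the counts were 4, 0 and 38 in RBBP5-FKBP and 0, 0 and 28 in dKO, where without replicate 1 or 2 each dKO group is 1 library, assumed to vary like the others, and replicate 3 is a library of the other lines alone. T>C reads also appeared in the unlabelled Quant-seq libraries at more than 1% of a gene's reads, at 22.9% for Rplp1, 8.62% for Rplp2, 3.46% for Rps28 and 1.43% for Rps21. Rplp1 and Rplp2 had 131 and 116 reads over these libraries, and more than 3 T>C reads in 1 and 0 of 21 libraries. The cause of these unlabelled conversions was not tested.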

How the results depend on the processing

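Counts below are RP genes called, lower or higher, where they differed by more than 1.5 times from the reported count, and the cause of these differences was not tested unless the setting itself gives it. By DESeq2 in T>C reads, 2 were higher in DPY30-mAID at 24 h and 2 lower in RBBP5-FKBP at 2 h and in dKO at 8 h; in Quant-seq, auxin against DMSO gave 2 lower at 8 h and 0 at day 1. With TMM from T>C reads, which centres the median gene, DPY30-mAID gave 5 lower and 1 higher at 8 h and 24 higher at 24 h, RBBP5-FKBP 0 lower at 2, 8 and 24 h and 3 higher at 24 h, and dKO 0 lower at 8 h, 3 lower and 5 higher at 24 h and 6 lower and 5 higher at 48 h, with 8 and 0 lower for the line differences at 24 h. Scaled by total reads alone, T>C reads gave 23 lower in DPY30-mAID at 8 h and 3 in dKO at 8 h, and all reads 2 lower in DPY30-mAID at 8 h, 5 higher in RBBP5-FKBP at 8 h, 2 lower and 5 higher in dKO at 24 h, and 6 lower and 7 higher at 48 h. In Quant-seq this scaling gave 36 higher at day 2, 6 lower and 19 higher at day 4, and for auxin 5 higher at day 2 and 37 lower and 3 higher at day 4. Without the filter on low counts, T>C reads gave 1 higher in DPY30-mAID at 24 h, and all reads 1 higher in RBBP5-FKBP at 2 h, 2 lower at 24 h, 12 lower and 2 higher in dKO at 24 h and 32 lower and 4 higher at 48 h, with 4 lower at day 1 and 9 higher at day 4 in DMSO, and 2 lower at 8 h and 11 higher at day 1 for auxin. Without multimapped reads, all reads gave 3 lower in DPY30-mAID at 8 h and 30 higher at 24 h, 1 higher in RBBP5-FKBP at 8 h and 0 higher in dKO at 24 h, DMSO 23 higher at 8 h and 2 lower at day 2, and auxin 2 lower at 8 h, 3 lower at day 2, 28 lower and 2 higher at day 4 and 13 lower for day 6 against day 4. Of named genes, Rpl28 (all reads, DPY30-mAID at 24 h) turned to 0.12 and Rpl15 (DMSO day 2) to 0.17 on the log2 scale.

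Replicate numbers did not pair the libraries (mean correlation of same-numbered deviations -0.00831 to 0.0464), and with a replicate block T>C reads gave 1 higher in DPY30-mAID at 24 h and 4 lower in dKO at 8 h, and all reads 9 lower and 2 higher in dKO at 24 h and 1 higher at 48 h. With 1 library left out in turn, or in DPY30-mAID and RBBP5-FKBP 1 replicate number left out of every group, T>C counts ranged, in DPY30-mAID, over 0 to 56 lower at 8 h and 0 to 1 lower and 0 to 5 higher at 24 h; in RBBP5-FKBP over 0 lower at 2 h, 0 to 4 lower at 8 h and 7 to 22 lower and 0 to 1 higher at 24 h; in dKO over 0 to 5 lower at 8 h and 38 to 67 at 24 h; and for line differences over 0 to 1 higher at 8 h and 0 to 38 (RBBP5-FKBP) and 0 to 28 (dKO) lower at 24 h. The fits that left out only an 8 h library were chosen after seeing the data. All reads ranged over 0 to 1 lower at 2 h, 1 to 7 lower at 8 h and 1 to 3 lower and 35 to 53 higher at 24 h in DPY30-mAID, 1 to 2 lower and 0 to 1 higher at 8 h and 0 to 1 lower and 1 to 4 higher at 24 h in RBBP5-FKBP, and 1 to 8 lower and 0 to 7 higher at 24 h and 7 to 32 lower and 0 to 2 higher at 48 h in dKO. Quant-seq ranged over 18 to 40 higher at 8 h, 2 to 5 lower and 10 to 21 higher at day 2 and 7 to 10 lower and 1 to 5 higher at day 4 in DMSO, and over 0 lower and 2 to 4 higher at day 1, 3 to 6 lower at day 2, 27 to 61 lower and 0 to 1 higher at day 4 and 8 to 47 lower for day 6 against day 4 in auxin.

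The T>C share over RP genes with under 10% multimapped reads was 5.80%, 6.10%, 4.31% and 6.13% in DPY30-mAID at 0, 2, 8 and 24 h, 4.20%, 3.77%, 3.32% and 3.02% in RBBP5-FKBP, and 2.38%, 2.11%, 2.09%, 2.11%, 1.46% and 1.06% in dKO at 0, 2, 4, 8, 24 and 48 h. Over the interval with the most reads it was 1.81% and 1.85% in dKO at 4 and 8 h. Low counts limit what can be said of Rpl3l, Rpl10, Rpl11 and Rps27, which averaged under 10 reads in DPY30-mAID at 0 h.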
